A study of Mus musculus with 7 samples.

Results

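The 35 genes described here belong to the cellular response to low oxygen and to glycolysis, the pathway that splits glucose into pyruvate and lactate. They were taken as a list of gene symbols and not by a cut-off on any measured value. The list was drawn up with earlier results of these data known. All 35 were found among the 53379 gene identifiers of the count tables. The list holds 4 genes of oxygen sensing, 5 membrane transporters and carbonic anhydrases, 16 glycolytic enzymes, 3 regulators of glycolytic flux and 7 other genes known to be induced by hypoxia. RNA was sequenced from epithelial cells of the mouse uterus that had been separated magnetically by the surface protein EPCAM, and 7 libraries were counted. The study asks how these cells differ when Brg1, a motor subunit of the SWI/SNF chromatin remodelling complex, is deleted.

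The 4 mutant libraries each came from a single CD-1 mouse, aged 120 days, of genotype LtfCre 0/+; Brg1 fl/fl. In these mice the lactoferrin gene (Ltf) drives Cre recombinase, and Ltf is active in uterine epithelium. The 3 control libraries came from pools of wild-type CD-1 mice, were reused from an earlier series and are described as belonging to its first flow cell. Neither the age of the control mice nor any sharing of mice between pools is stated in the labels. Mutants and controls never share a set of libraries, and therefore genotype, set of libraries and pooling of animals cannot be told apart in any comparison below. The p-values reflect only the spread among single mice and among pools.

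Reads counted in genes ranged from 12436971 to 13364080 per mutant library and from 21372036 to 25862245 per control library. Values are counts per 1000000 gene reads (CPM) after TMM scaling, and a floor of 3 reads equals 0.136 to 0.235 CPM, for counting error only. The targeted gene Smarca4, which encodes BRG1, lay at 87.6, 56.7, 86.9 and 105.4 CPM in mutants 1 to 4 and at 263, 245 and 279 CPM in controls 1 to 3 (edgeR adjusted p = 0.00967). Ltf itself lay at 82.7 CPM in mutant 1 and between 1146 and 2023 CPM in the other mutants, below the 2940 to 3687 CPM of the controls. The 6 epithelial markers summed to 6859 to 10228 CPM in mutants, against 14432 to 17301 CPM in controls, and Epcam lay at 574 to 743 CPM against 823 to 966 CPM. Stromal fibroblast markers summed to 162 to 470 CPM against 536 to 687 CPM, and leukocyte markers to 385 to 657 CPM against 465 to 619 CPM. The 6 endothelial markers summed to 23.5, 4.91, 5.74 and 21.03 CPM in mutants 1 to 4, against 20.3 to 25.8 CPM in controls. Smooth muscle and pericyte markers summed to 82.0, 7.52, 13.0 and 30.7 CPM in mutants 1 to 4, against 67.1 to 106.6 CPM in controls. The 4 erythroid markers summed to 6.34 CPM in mutant 1, nearly all of it Alas2, and to 0.0767 to 1.75 CPM in the other 6 libraries, with the globin genes Hba-a1 and Hba-a2 at 0 throughout.

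Cells sense oxygen through prolyl hydroxylases (the EGLN or PHD enzymes), which mark the alpha subunits of hypoxia-inducible factor (HIF) for destruction through the VHL protein while oxygen is present. When oxygen is scarce the alpha subunits, HIF-1 alpha (Hif1a) and HIF-2 alpha (Epas1), accumulate, pair with ARNT and bind DNA at a short core motif. Their targets include glucose transporters, nearly every glycolytic enzyme, lactate exporters and the hydroxylase Egln3 itself. Because this control acts on protein stability, transcript levels of Hif1a and Epas1 do not report HIF activity. In the uterus the epithelium takes up glucose, stores it as glycogen and feeds the uterine fluid.

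The HIF core motif was searched in the 250 bases before the RefSeq transcription starts (GRCm38.p6) as ACGTG or GCGTG on both strands, so that the palindrome CACGTG counts once on each strand. Promoter entries matched 31 of the 35 genes with 44 windows, and Epas1, Ndrg1, Slc2a3 and Bnip3l had none. A motif was present in 35 windows, or 79.55%, against 38.6% of all 32851 windows and 53.96% of the 13718 windows of genes tested below. The form ACGTG was present in 47.73% of the windows, against 16.57% of all windows and 21.07% of those of tested genes. By gene, 27 of the 31 had a motif in at least 1 window. Some windows of Eno1, Aldoa and Pfkm overlap and count the same motif again. The genes were listed as known members of the hypoxia response and glycolysis, so these shares describe the list and test nothing. The windows held 60.73% G and C, against 59.4% in the windows of tested genes. A match is a description of these letters and not of binding, which was not measured here. The 4 stretches below are shown because they precede the transporter that fell (Slc2a1), the hydroxylase that spread most among the oxygen-sensing genes (Egln3), a mitophagy gene whose groups did not overlap (Bnip3) and lactate dehydrogenase (Ldha), which has 5 matches. Each is written 5′ to 3′ on the gene's strand, from RefSeq on GRCm38.p6, with matches on either strand in capitals and with bases of GENCODE exons left out.
Slc2a1 (chr4:119108495-119108710, plus strand): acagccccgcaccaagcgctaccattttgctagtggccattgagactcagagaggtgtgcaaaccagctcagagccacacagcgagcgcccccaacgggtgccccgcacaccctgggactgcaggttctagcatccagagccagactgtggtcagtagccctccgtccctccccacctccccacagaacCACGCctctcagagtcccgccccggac
Egln3 (chr12:54203875-54204124, minus strand): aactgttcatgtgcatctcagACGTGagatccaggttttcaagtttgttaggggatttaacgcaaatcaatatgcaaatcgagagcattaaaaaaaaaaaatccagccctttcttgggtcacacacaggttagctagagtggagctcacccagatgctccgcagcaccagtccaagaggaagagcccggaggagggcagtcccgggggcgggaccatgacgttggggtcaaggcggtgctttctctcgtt
Bnip3 (chr7:138909520-138909756, minus strand): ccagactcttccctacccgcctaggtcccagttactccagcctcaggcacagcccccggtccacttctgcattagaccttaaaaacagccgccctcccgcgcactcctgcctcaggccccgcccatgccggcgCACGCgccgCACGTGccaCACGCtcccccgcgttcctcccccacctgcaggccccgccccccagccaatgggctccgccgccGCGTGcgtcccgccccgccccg
Ldha (chr7:46845554-46845803, plus strand): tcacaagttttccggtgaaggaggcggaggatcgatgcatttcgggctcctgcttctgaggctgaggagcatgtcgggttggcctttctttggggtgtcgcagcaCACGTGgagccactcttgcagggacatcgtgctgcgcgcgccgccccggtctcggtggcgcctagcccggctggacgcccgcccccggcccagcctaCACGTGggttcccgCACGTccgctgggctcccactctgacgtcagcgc
The 4 stretches differ in their matches. The Slc2a1 stretch holds 1 match and the full window 2, the Egln3 stretch holds 1, and the stretches of Bnip3 and Ldha hold 5 each. Of all windows, with 53.22% G and C, 1.011% hold 5 or more. Ldha was chosen for its 5 matches, so this share is no test of it, and its other window held 1 match.

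All 35 genes passed the filter on low counts. In the quasi-likelihood F test of edgeR, with Benjamini-Hochberg adjustment over all 14610 tested genes, 2 of them were called at an adjusted p under 0.05. Both were lower in mutants: the glucose transporter Slc2a1 and the HIF-2 alpha gene Epas1. Called genes made up 5.71% of the list, against 11.5% of all tested genes (5.37% higher and 6.18% lower). No gene of the list was called higher by edgeR, while 3 were higher and 5 lower at an unadjusted p under 0.05, a threshold that 16.4% and 14.6% of all tested genes passed in the same directions. DESeq2, which called 17.6% of the genes to which it gave an adjusted p, called the same 2 genes and also Bnip3 and Aldoc, both higher. The median log2 fold change of the 35 genes was 0.17, against 0.06 over all tested genes. Upper-quartile and total count scaling moved the median of all tested genes to 0.20 and 0.41 and that of the list to 0.30 and 0.53, so all differences are relative to the TMM scaling. The 2 groups were fully separated in 7 of the 35 genes, or 20.0%, against 31.5% of all tested genes. In 3 of them every mutant lay above every control (Aldoc, Pfkfb4 and Bnip3; 15.4% of all tested genes), and in 4 below (Epas1, Slc2a1, Hk2 and Ndrg1; 16.1%).

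**Figure D1:**
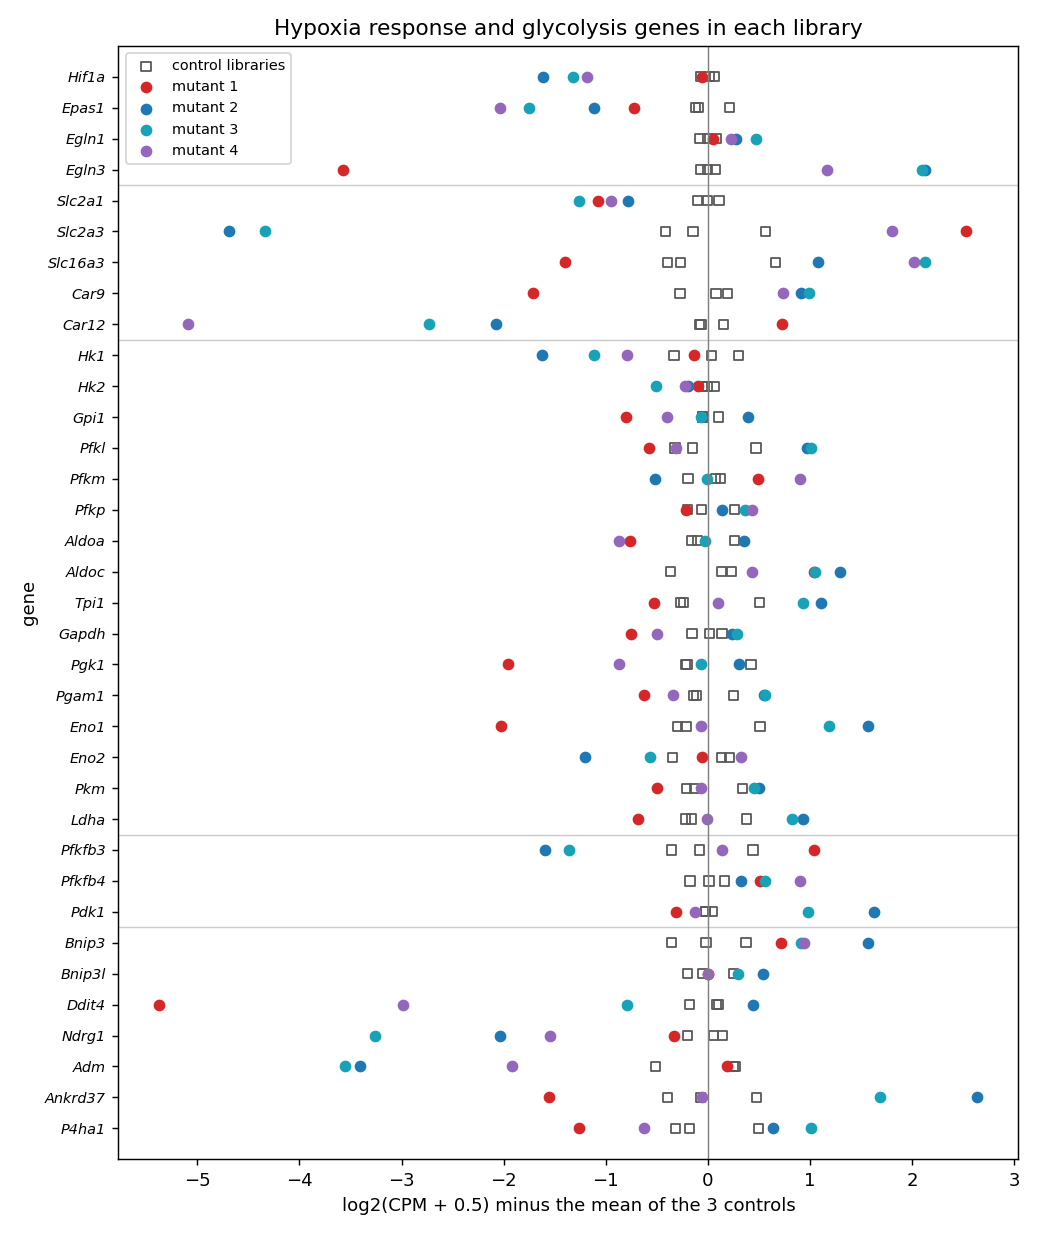
Level of each of the 35 genes in each library, as log2(CPM + 0.5) minus the mean of the 3 controls, with genes grouped by role and one point per library. Controls (squares) lie close together, while mutants lie on both sides of the controls in 22 genes, with Ddit4 and Egln3 lowest in mutant 1 and Slc2a3 lowest in mutants 2 and 3.

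Many of the 35 genes differed widely from mutant to mutant. The standard deviation of log2 levels among the 4 mutants had a median of 0.685 over the 35 genes, against 0.476 over all tested genes. In the controls the medians were 0.235 and 0.221. Mutant libraries were single mice and control libraries were pools, so a wider spread in mutants cannot be assigned to genotype. Of the 35 genes, 10 (28.6%) had a mutant standard deviation above 1.24, the 90th percentile of all tested genes. In 22 of the 35 genes (62.9%) at least 1 mutant lay above every control and at least 1 below every control, which held for 36.2% of all tested genes. Mutant 1 was the lowest of the 4 mutants in 19 of the 35 genes (54.3%), against 35.3% of all tested genes.

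Epas1 encodes HIF-2 alpha, the alpha subunit that is more restricted to certain cell types than HIF-1 alpha. It lay at 67.4, 51.4, 32.9 and 26.9 CPM in mutants 1 to 4 and at 129.4, 105.1 and 102.7 CPM in controls 1 to 3. Every mutant was below every control, and the mean was 44.7 ± 18.4 CPM (SD, n = 4) against 112.4 ± 14.7 CPM (SD, n = 3). The log2 fold change was −1.33 ± 0.32 SE, a 2.52-fold lower level (edgeR, Benjamini-Hochberg adjusted p = 0.0415). Epas1 (ENSMUSG00000024140.9) spans 86753700 to 86833410 on the plus strand of chromosome 17 in GRCm38. In bulk RNA, fewer cells that express a gene and less of its RNA per cell cannot be told apart. Endothelial cells are also known to express Epas1. The endothelial marker sum was below every control in mutants 2 and 3 and inside the control range in mutants 1 and 4, and its part in the Epas1 levels was not tested. The call was lost when any library other than mutant 1 was left out, with adjusted p from 0.0667 to 0.161 in those 6 fits, while the log2 fold change stayed between −1.14 and −1.40.

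Hif1a, the HIF-1 alpha gene, was more abundant per length than Epas1, at 84.5 CPM per kilobase of exon in controls against 20.1 for Epas1. It lay at 479, 162, 199 and 219 CPM in mutants 1 to 4 and at 519, 473 and 501 CPM in controls. Mutant 1 lay within the control range, and the other 3 mutants lay far below it. With all libraries the log2 fold change was −0.91 ± 0.37 SE and did not pass (edgeR adjusted p = 0.147). Without mutant 1 it was −1.32 ± 0.17 SE and passed (edgeR adjusted p = 0.00482), in a fit in which 14.0% of all tested genes were called lower.

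The HIF prolyl hydroxylase genes had positive fitted values, unlike the alpha subunits, and neither passed the test. Egln1 (PHD2), the main hydroxylase in most cells, lay at 123, 144, 164 and 139 CPM in mutants, compared with 125, 112 and 118 CPM in controls (log2 fold change 0.26 ± 0.16 SE, edgeR adjusted p = 0.310). Egln3 (PHD3), a hydroxylase that is itself a classical HIF target, lay at 2.66, 164, 161 and 84.3 CPM in mutants 1 to 4 and at 37.1, 35.4 and 39.1 CPM in controls. Mutant 1 was far below and the other 3 mutants were above the narrow control range. The fitted log2 fold change was 1.47 ± 1.01 SE (edgeR adjusted p = 0.364), and 1.91 ± 0.26 SE without mutant 1 (edgeR adjusted p = 0.00534), where 15.5% of all tested genes were called higher. Within the family, per kilobase of exon, Egln3 made up 1.87%, 54.3%, 49.9% and 32.8% of the summed hydroxylase level in mutants 1 to 4, against 21.9% to 22.8% in controls.

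Slc2a1 encodes GLUT1, the basal glucose transporter of most epithelia. It lay at 187, 229, 165 and 204 CPM in mutants 1 to 4 and at 394, 367 and 426 CPM in controls 1 to 3. Each mutant was below each control, and the mutants were close together, with a standard deviation of log2 levels of 0.20. The log2 fold change was −1.01 ± 0.17 SE, a 2.02-fold lower level (edgeR, Benjamini-Hochberg adjusted p = 0.0174). Slc2a1 (ENSMUSG00000028645.11) spans 119108711 to 119137983 on the plus strand of chromosome 4 in GRCm38. The fall passed without any single mutant, at adjusted p from 0.0112 to 0.0489, but not without any single control, where adjusted p ran from 0.0814 to 0.0951 at log2 fold changes of −0.93 to −1.02. The epithelial and the stromal marker sums were also lower in every mutant than in every control, and their part in the lower Slc2a1 and Epas1 levels was not tested. In the authors' deposited table Slc2a1 had a log2 fold change of −0.997 with a standard error of 0.458 and an adjusted p of 0.117.

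Slc2a3 encodes GLUT3, a transporter with high affinity for glucose that is best known from neurons and leukocytes. It lay at 360 CPM in mutant 1 and 217 CPM in mutant 4, against 1.92 CPM in mutant 2 and 2.59 CPM in mutant 3. The controls lay between, at 46.4, 56.0 and 91.7 CPM. The highest mutant was thus 187.8-fold above the lowest, the widest ratio among the 35 genes, and the fitted value of 1.17 ± 1.55 SE (log2) did not pass (edgeR adjusted p = 0.646). Per kilobase, Slc2a3 made up 48.2% and 34.0% of the Slc2a1 and Slc2a3 sum in mutants 1 and 4, under 1% in mutants 2 and 3 (0.403% and 0.757%) and 5.39% to 9.43% in controls. The endothelial and the smooth muscle and pericyte marker sums were also higher in mutants 1 and 4 than in mutants 2 and 3, although the smooth muscle genes Des and Myh11 were lowest in mutant 4. Leukocyte markers summed to 608, 585, 657 and 385 CPM in mutants 1 to 4. The part of these other cells in the Slc2a3 levels was not tested.

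Slc16a3 encodes MCT4, which exports lactate from glycolytic cells. It lay at 2.58, 16.7, 34.95 and 32.5 CPM in mutants 1 to 4 and at 5.70, 6.24 and 12.4 CPM in controls, so that mutant 1 was below and the other mutants above the control range. The log2 fold change was 1.42 ± 0.78 SE (edgeR adjusted p = 0.260), and 1.83 ± 0.41 SE without mutant 1 (edgeR adjusted p = 0.0181). Of the summed Slc16a1 and Slc16a3 level per kilobase, Slc16a3 made up 36.1% in mutant 4 and 1.97% to 11.04% in the other mutants, against 2.30% to 5.34% in controls. Car9 and Car12 encode membrane carbonic anhydrases that help to keep the pH of hypoxic cells. Car9, a HIF-1 target, lay at 2.97, 21.02, 22.1 and 18.5 CPM in mutants 1 to 4 and at 11.6, 8.94 and 12.5 CPM in controls, again with mutant 1 alone below the controls and the other 3 above them. Its log2 fold change was 0.55 ± 0.60 SE (edgeR adjusted p = 0.566), and 0.94 ± 0.20 SE without mutant 1 (edgeR adjusted p = 0.0169). Without any other single library the edgeR adjusted p of Car9 ran from 0.626 to 0.757. Car12 lay on the opposite sides of the controls, at 1984, 284, 180 and 34.6 CPM in mutants 1 to 4 against 1129, 1329 and 1142 CPM in controls. Mutant 1 was above and the other 3 mutants were far below the controls. The fitted value was −0.95 ± 1.10 SE on the log2 scale (edgeR adjusted p = 0.593), and −2.82 ± 0.67 SE without mutant 1 (edgeR adjusted p = 0.0216).

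**Figure D2:**
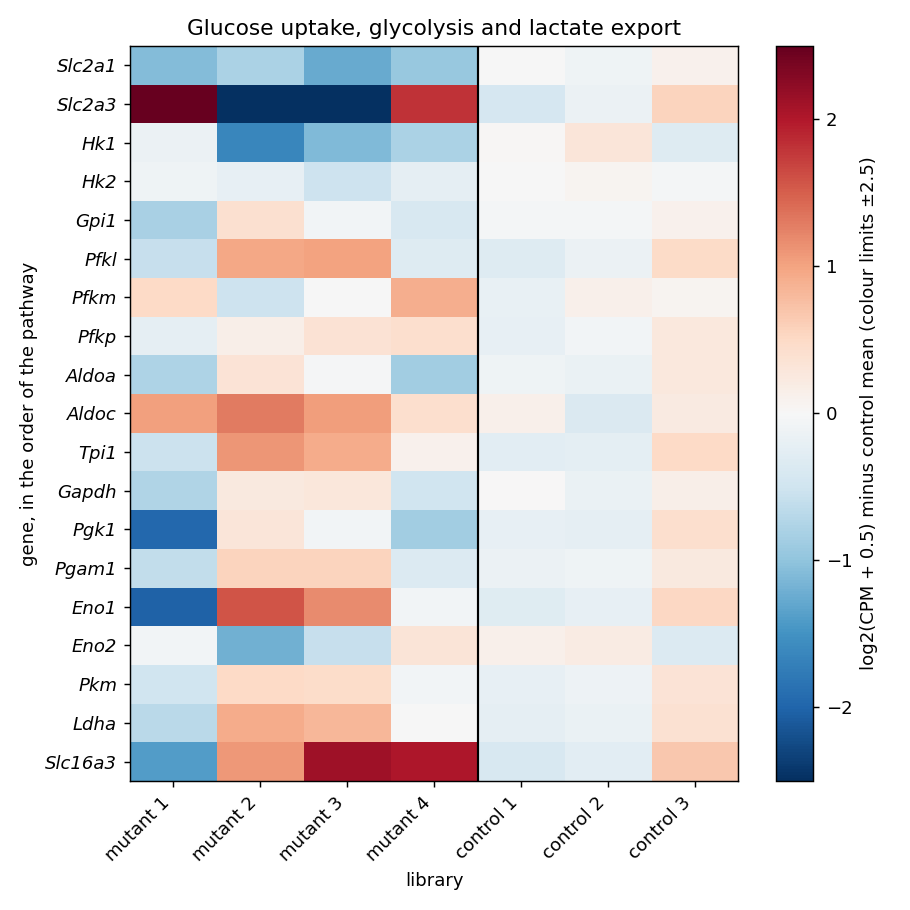
Glucose transporters, glycolytic enzymes in the order of the pathway and the lactate exporter Slc16a3 (rows) in each library (columns), coloured by log2(CPM + 0.5) minus the control mean. Slc2a1 is low in all 4 mutants, whereas most enzymes are low in mutant 1 and high in mutants 2 and 3.

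None of the 16 glycolytic enzymes passed the edgeR test. At an unadjusted p under 0.05, Aldoc was higher and Hk1 lower, DESeq2 called 1 of the 16 (Aldoc, higher), and the median log2 fold change of the 16 was 0.12. Their summed level was 2885, 5983, 5273 and 3473 CPM in mutants 1 to 4 and 3935, 4000 and 5020 CPM in controls 1 to 3. Mutant 1 and mutant 4 thus lay below every control, and mutants 2 and 3 above every control. Mutants 2 and 3 were both above mutants 1 and 4 in 11 of the 16 enzymes (68.8%), against 29.2% of all tested genes. This split is the one seen in the sum of the same enzymes, so the count describes it and does not test it. Mutant 1 was below every control in 12 enzymes. Mutant 2 was above every control in 10 enzymes and below in 4, and mutant 3 above in 9 and below in 4. Mutant 4 was above every control in 4 and below in 7. The matching shares of all tested genes were not counted, so these counts cannot be read as particular to the enzymes. The proliferation gene Mki67 lay at 12.3, 269, 369 and 193 CPM in mutants 1 to 4 and at 72.6 to 128 CPM in controls. It was lowest in mutant 1 like the enzyme sum. In mutant 4, however, Mki67 lay above every control and the enzyme sum below. The part of Mki67 in the enzyme levels was not tested.

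Hexokinases, which trap glucose in the cell as glucose 6-phosphate, both had negative fitted values. Hk2, the inducible form, lay at 632, 590, 475 and 579 CPM in mutants and at 676, 706 and 652 CPM in controls. The groups did not overlap, but the difference of −0.25 ± 0.17 SE (log2) was small and did not pass (edgeR adjusted p = 0.370), and it was 0.10 under total count scaling. Hk1, the constitutive form, lay at 181, 64.5, 92.2 and 115 CPM in mutants and at 204, 246 and 159 CPM in controls, with mutant 1 inside the control range and the others below it. Its log2 fold change was −0.84 ± 0.35 SE (edgeR adjusted p = 0.151), and −1.12 ± 0.27 SE without mutant 1 (edgeR adjusted p = 0.0235). Hk2 made up 80.4% to 85.4% of the Hk1 and Hk2 sum per kilobase in controls and 83.3% to 92.9% in mutants.

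Gpi1, the isomerase of the next step, lay at 155, 357, 259 and 205 CPM in mutants and at 262, 262 and 291 CPM in controls (log2 fold change −0.16 ± 0.28 SE). Phosphofructokinase commits sugar to glycolysis and has 3 isoforms, of which Pfkl, the liver form, was the most abundant per length. Pfkl lay at 58.2, 172, 176 and 70.2 CPM in mutants and at 69.7, 78.7 and 121 CPM in controls, with mutants 2 and 3 above the controls. Pfkm, the muscle form, went the other way, at 15.6, 7.52, 10.9 and 20.97 CPM against 9.55 to 12.01 CPM. The platelet form Pfkp varied little, at 41.4 to 65.0 CPM in mutants, next to 41.9 to 57.8 CPM in controls. Pfkl accordingly made up 80.6% and 76.9% of the family per kilobase in mutants 2 and 3, 52.9% and 48.6% in mutants 1 and 4, and 62.6% to 70.0% in controls.

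Aldolases split the 6-carbon sugar. Aldoc, the form known best from brain, lay at 21.5, 25.8, 21.7 and 14.0 CPM in mutants and at 11.3, 7.83 and 12.1 CPM in controls. All 4 mutants were above all 3 controls, and the log2 fold change was 0.99 ± 0.28 SE. It missed the threshold (edgeR adjusted p = 0.0634) and passed in DESeq2 (adjusted p = 0.0164). It also passed in edgeR under upper-quartile scaling (adjusted p = 0.0379) and total count scaling (adjusted p = 0.0194). The authors' deposited table gives Aldoc 1.01 with an adjusted p of 0.0552. Aldoa, the major form, lay at 484, 1046, 805 and 448 CPM in mutants and at 765, 735 and 984 CPM in controls (log2 fold change −0.25 ± 0.34 SE). Aldoc made up 2.76% ± 0.744 (SD, n = 4) of both aldolases per kilobase in mutants and 1.11% ± 0.180 (SD, n = 3) in controls, again without overlap. By an exact two-sided permutation test over the libraries the p was 0.0571, the smallest that 4 against 3 libraries allow, and 0.314 after Benjamini-Hochberg adjustment over the 22 shares computed.

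The enzymes below aldolase mostly shared the order of the libraries. Tpi1, which interconverts the 2 triose phosphates, lay at 190, 592, 522 and 294 CPM in mutants and at 227, 233 and 390 CPM in controls. Gapdh, often used as a reference gene, lay at 249, 496, 511 and 298 CPM against 426, 377 and 462 CPM. Both were lowest in mutant 1 and highest in mutants 2 and 3. Pgk1, the first ATP-forming enzyme, lay at 24.5, 119, 91.8 and 52.6 CPM in mutants and at 83.6, 83.0 and 129 CPM in controls, so that mutants 1 and 4 lay below the controls. Pgam1, a mutase, lay at 14.9, 34.1, 34.3 and 18.2 CPM against 20.9, 21.4 and 27.7 CPM.

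Eno1, the common enolase, showed the widest range of the 16 enzymes. It lay at 34.9, 427, 326 and 137 CPM in mutants 1 to 4 and at 117, 124 and 204 CPM in controls, a 12.2-fold ratio between mutants 2 and 1 (log2 fold change 0.64 ± 0.73 SE, edgeR adjusted p = 0.586). Eno2, the neuronal enolase, was low and ran in reverse, at 3.99, 1.53, 2.66 and 5.36 CPM in mutants and at 4.64, 4.92 and 3.18 CPM in controls. Pkm, which makes pyruvate, lay at 359, 715, 694 and 483 CPM against 439, 462 and 640 CPM. Ldha, which turns pyruvate into lactate, lay at 419, 1282, 1189 and 667 CPM in mutants and at 578, 601 and 875 CPM in controls. Mutants 2 and 3 were above every control for Eno1, Pkm and Ldha, mutant 1 was below every control for all 3, and mutant 4 lay inside the control range. The fitted differences of Pkm (0.13 ± 0.29 SE) and Ldha (0.38 ± 0.41 SE) did not pass (edgeR adjusted p = 0.796 and 0.568). Counts of Gapdh, Pgk1, Pgam1, Eno1, Pkm, Bnip3 and Bnip3l are uncertain, since 16.5% to 53.9% of their 50-base words occur in other genes, among them pseudogenes and, for Eno1, the protein-coding Eno1b. Adding the reads assigned to such copies changed no call. Those copies held at most 0.08 CPM for Pgk1, 0.23 CPM for Pgam1 and 0 CPM for Bnip3. Reads that map to several places, 8.45% to 11.2% per library, are counted in no gene. The addition therefore could not test the loss of such reads.

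**Figure D3:**
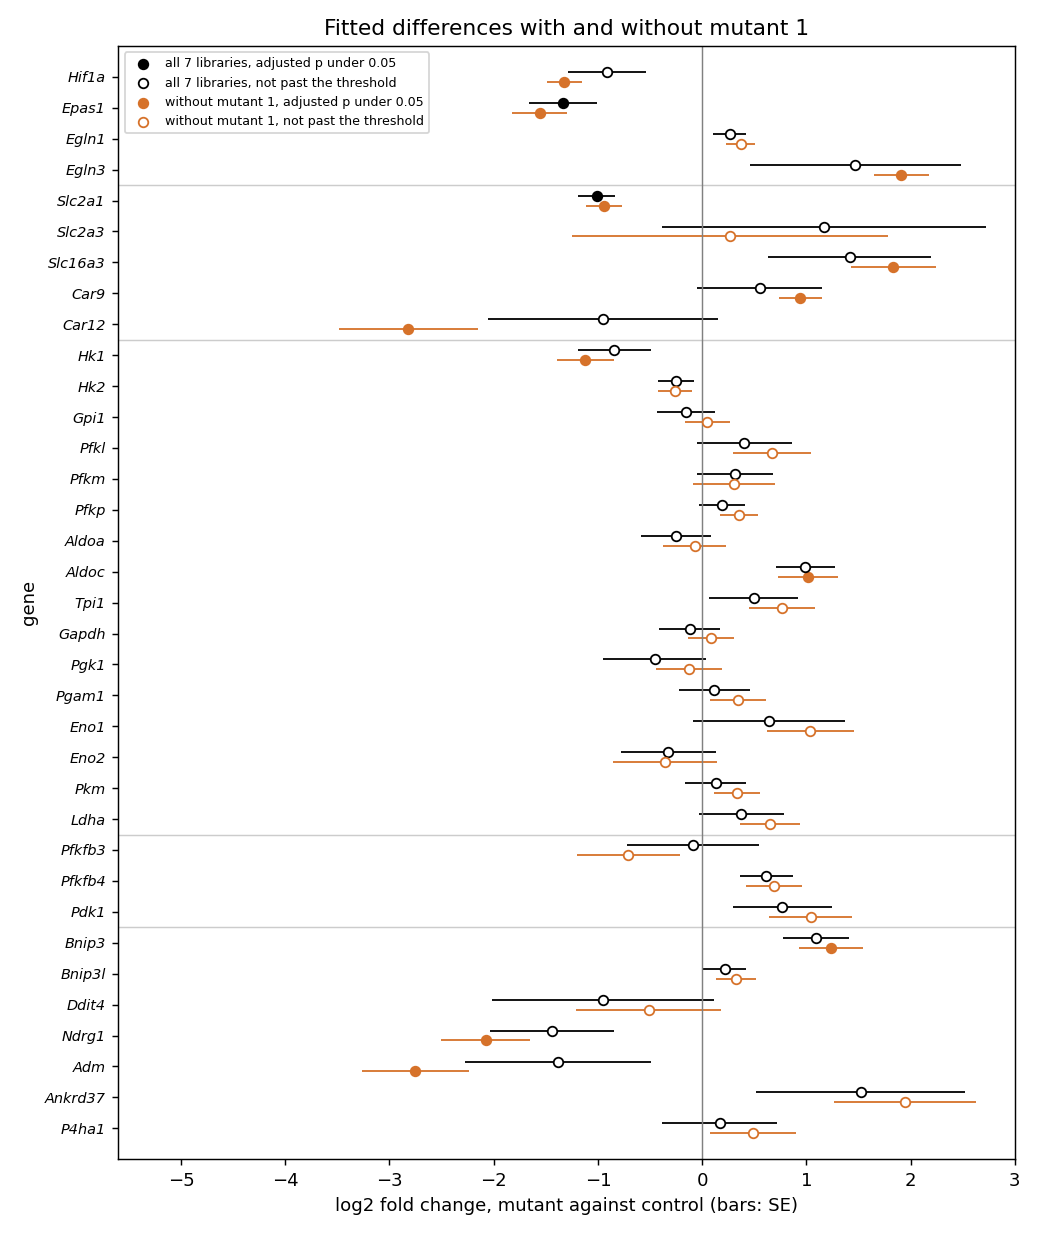
Fitted log2 fold change of each gene, mutant against control, with bars of 1 SE, from all 7 libraries (black) and without mutant 1 (orange), where filled points passed an adjusted p under 0.05. With all libraries Epas1 and Slc2a1 are filled, and without mutant 1 there are 12 filled points, of which 5 lie above 0 and 7 below.

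The flux regulators gave no call. Pfkfb3 and Pfkfb4 make and remove fructose 2,6-bisphosphate, the activator of phosphofructokinase. Pfkfb4 lay at 9.46, 8.29, 9.80 and 12.6 CPM in mutants and at 5.70, 7.35 and 6.55 CPM in controls, above in every mutant. The difference of 0.62 ± 0.25 SE (log2) did not pass (edgeR adjusted p = 0.147), whereas the authors' deposited table gives 0.63 with an adjusted p of 0.0371. Pfkfb3, the form with the strongest kinase activity, lay at 484, 77.7, 91.5 and 259 CPM in mutants and at 223, 320 and 184 CPM in controls. Mutant 1 was above and mutants 2 and 3 were below the controls, the reverse of the order of the enzymes. Per kilobase, Pfkfb4 made up 14.2% and 14.3% of the pair in mutants 2 and 3 and 2.95% and 6.99% in mutants 1 and 4, against 3.44% to 5.24% in controls. Pdk1, the kinase that keeps pyruvate out of mitochondria, lay at 21.04, 81.9, 52.2 and 24.0 CPM in mutants and at 27.1, 25.9 and 25.9 CPM in controls (log2 fold change 0.77 ± 0.48 SE, edgeR adjusted p = 0.313). It was above the controls in mutants 2 and 3 and below them in mutants 1 and 4.

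Among the other hypoxia-inducible genes, the mitophagy receptor Bnip3 lay above in every mutant. It lay at 11.97, 22.0, 13.8 and 14.0 CPM in mutants 1 to 4 and at 5.43, 6.98 and 9.32 CPM in controls. The log2 fold change was 1.09 ± 0.32 SE and missed the threshold (edgeR adjusted p = 0.0647), while DESeq2 called it (adjusted p = 0.0163). So did edgeR under upper-quartile scaling (adjusted p = 0.0432) and total count scaling (adjusted p = 0.0244). The authors' deposited table lists it at 1.11 with no adjusted p. Its paralog Bnip3l (NIX), which also clears mitochondria, lay at 91.6, 133, 112 and 91.5 CPM in mutants and at 88.1, 79.3 and 109 CPM in controls. Bnip3 made up 19.6% ± 2.19 (SD, n = 4) of the pair per kilobase in mutants and 11.8% ± 1.95 (SD, n = 3) in controls, without overlap (exact two-sided permutation test, p = 0.0571, adjusted p = 0.314 over the 22 shares).

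**Figure D4:**
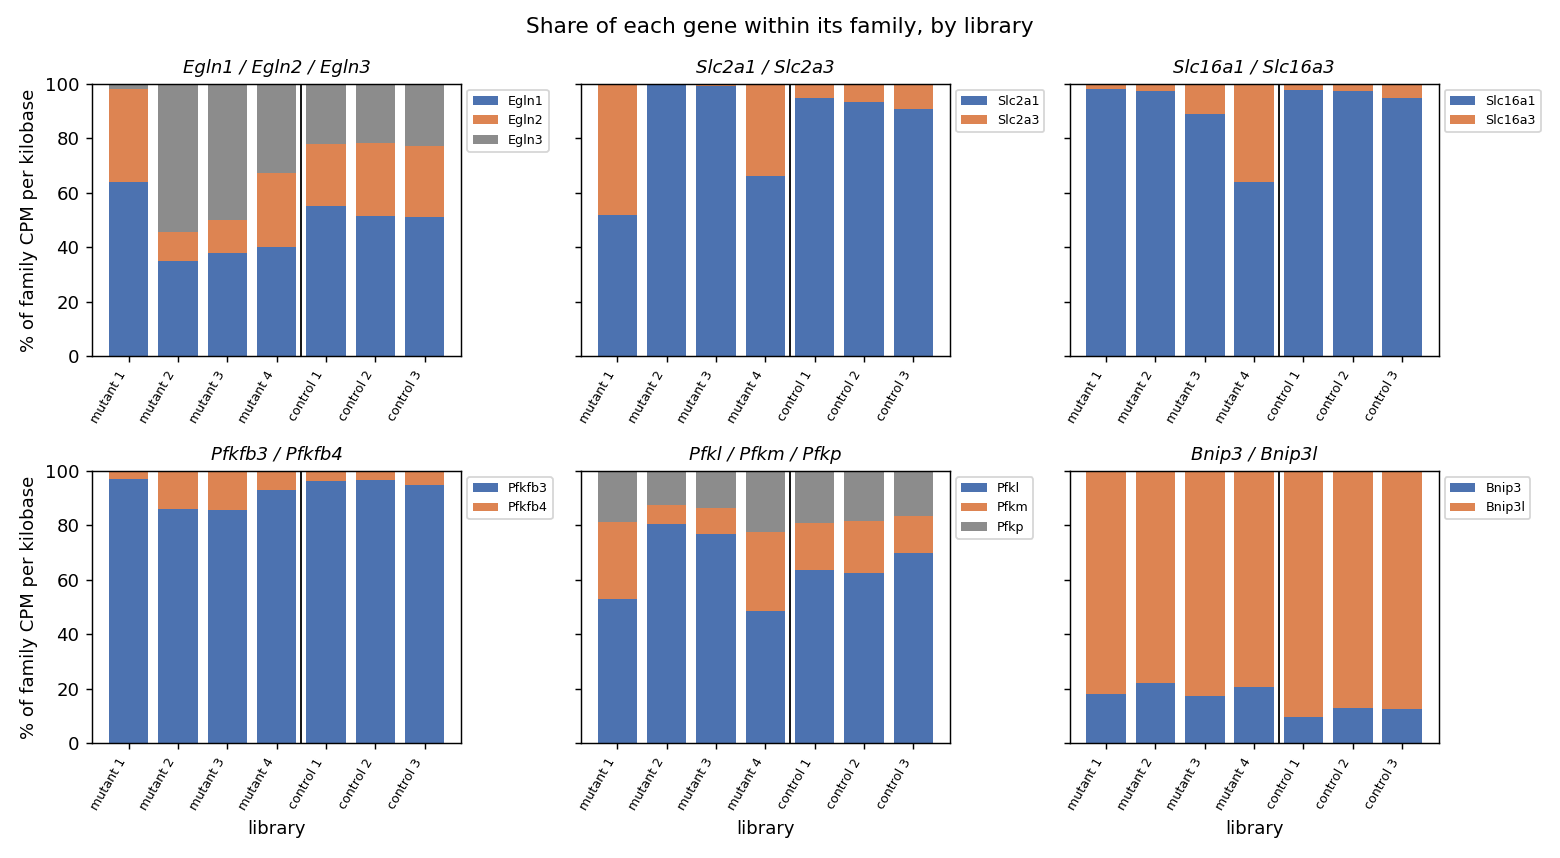
Share of each gene in the summed level of its family per library, in percent of CPM per kilobase of exon, with mutants left and controls right of the line in each panel. The Bnip3 share lies above every control in every mutant, whereas the shares of Egln3, Slc2a3, Slc16a3, Pfkfb4 and Pfkl differ between mutants more than between controls.

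Ndrg1, a stress-responsive gene of differentiated epithelium, lay at 630, 194, 82.4 and 271 CPM in mutants and at 692, 879 and 825 CPM in controls. Every mutant was below every control, with mutant 1 closest to them. The log2 fold change was −1.44 ± 0.59 SE (edgeR adjusted p = 0.147), and −2.08 ± 0.42 SE without mutant 1 (edgeR adjusted p = 0.0141). Adm encodes adrenomedullin, a vasodilator peptide, and lay at 999, 82.2, 74.2 and 231 CPM in mutants and at 1044, 1056 and 614 CPM in controls. Mutant 1 lay inside the control range and the other 3 mutants lay below it. The log2 fold change was −1.38 ± 0.89 SE (edgeR adjusted p = 0.331), and −2.75 ± 0.51 SE without mutant 1 (edgeR adjusted p = 0.0109).

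Ddit4 (REDD1), an inhibitor of mTORC1 signalling, was among the most uneven genes, at 4.07, 256, 109 and 23.3 CPM in mutants 1 to 4 against 199, 166 and 203 CPM in controls. Mutant 2 lay above the controls and the other 3 mutants below them, and the log2 fold change was −0.95 ± 1.06 SE (edgeR adjusted p = 0.580). Ankrd37, a small ankyrin-repeat gene induced by HIF-1, lay at 0.626, 20.1, 10.2 and 2.68 CPM in mutants and at 2.64, 2.01 and 4.09 CPM in controls (log2 fold change 1.52, edgeR SE 1.0, edgeR adjusted p = 0.341). P4ha1, a collagen prolyl hydroxylase subunit, lay at 12.8, 49.0, 63.7 and 20.2 CPM against 25.1, 27.6 and 44.3 CPM (log2 fold change 0.17 ± 0.55 SE). All 3 were lower in mutants 1 and 4 than in mutants 2 and 3, like most of the enzymes.

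Over the whole list, mutants 2 and 3 were both above mutants 1 and 4 in 19 of the 35 genes (54.3%), against 29.2% of all tested genes. The split is that of the enzyme sum, and the enzymes are part of the list, so this count is a description only. The 19 comprised 11 enzymes together with Egln1, Egln3, Car9, Pdk1, Bnip3l, Ddit4, Ankrd37 and P4ha1. In 8 genes (22.9%, against 27.4% of all tested genes) mutants 2 and 3 were both below mutants 1 and 4. These were Hif1a, Slc2a3, Hk1, Pfkm, Eno2, Pfkfb3, Ndrg1 and Adm. The known HIF targets did not share a single order of the libraries.

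Leaving out mutant 1 raised the number of called genes in the list from 2 to 12, or 5 higher and 7 lower. Calls over all tested genes rose to 29.5%, or 15.5% higher and 14.0% lower. The list genes called higher were Egln3, Slc16a3, Bnip3, Aldoc and Car9. Those called lower were Slc2a1, Epas1, Hif1a, Hk1, Ndrg1, Adm and Car12. Where mutant 1 stood apart from the other mutants, this fit drops the library that differed. Its p-values then describe the remaining libraries and do not test a difference shared by all mutants. Leaving out mutant 2, 3 or 4 left Slc2a1 as the only call, in fits that called 6.75%, 4.21% and 6.34% of all tested genes. Leaving out control 1, 2 or 3 left none of the 35, in fits that called 0.878%, 1.11% and 0.902% of all tested genes.

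Measured per kilobase of exon, Adm was the most abundant gene of the list in controls, at 559 CPM per kilobase, followed by Aldoa (284) and Ldha (207). In mutants the highest means were those of Ldha (269), Aldoa (239) and Adm (214). The Adm mean rests on mutant 1, without which it was 79.8 CPM per kilobase, below Tpi1 (170.5), Pkm (126.2), Gapdh (105.2) and Hk2 (91.9). Eno2 was the least abundant in both groups, at 0.903 CPM per kilobase in controls and 0.720 in mutants.

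A further 121 genes of the same pathways were read from the same fit in 7 lists, and 107 of them were tested. The edgeR test called 4 higher and 4 lower, or 7.48%, against 11.5% of all tested genes. Their median log2 fold change was −0.09, against 0.06 over all tested genes. Of 12 tested regulators of the HIF pathway, Cul2, the scaffold of the VHL ubiquitin ligase, rose (0.68 ± 0.18 SE, edgeR adjusted p = 0.0491). Of 10 tested genes around pyruvate dehydrogenase, Dld, its E3 subunit, rose (0.73 ± 0.19 SE, edgeR adjusted p = 0.0497). Of 15 tested genes of the pentose phosphate, hexosamine and glycogen branches, 2 rose and 1 fell. Glycogen synthase Gys1 rose from 19.9 ± 1.22 to 39.6 ± 5.88 CPM (0.99 ± 0.19 SE, edgeR adjusted p = 0.0222) and the pentose phosphate isomerase Rpia by 0.98 ± 0.24 SE on the log2 scale (edgeR adjusted p = 0.0401). The hexosamine enzyme Gfpt2 fell by 1.72 on that scale, with levels of 0.997 to 1.77 CPM in mutants (edgeR adjusted p = 0.0454).

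The list of other HIF target genes held the 3 further falls and no rise among 33 tested genes, with a median log2 fold change of −0.41. These 3 are 9.09% of the list, against 6.18% of all tested genes called lower. Angptl4, an inhibitor of lipoprotein lipase, lay at 1.64, 1.92, 2.80 and 2.19 CPM in mutants and at 10.6, 13.5 and 17.8 CPM in controls (−2.70 ± 0.31 SE, edgeR adjusted p = 0.00610). Heme oxygenase Hmox1 lay at 88.3, 52.7, 68.9 and 96.7 CPM against 307, 187 and 173 CPM (−1.54 ± 0.29 SE, edgeR adjusted p = 0.0215). Rab20, a vesicle GTPase, fell by 0.71 on the log2 scale (edgeR adjusted p = 0.0320). All 3 were below every control in every mutant, like Slc2a1 and Epas1. None of 12 other glycolytic isoforms and steps, 12 regulators and phosphatases and 13 transporters passed the edgeR test. Their most abundant genes were Pgm2 (−0.57 ± 0.31 SE), pyruvate carboxylase Pcx (0.78 ± 0.92 SE) over the 7 libraries and the transporter chaperone Bsg (−0.33 ± 0.21 SE). Txnip, a brake on glucose uptake, was above Pcx in controls only (−2.02 ± 0.58 SE, edgeR adjusted p = 0.0623). It was called lower by DESeq2 (adjusted p = 0.007) and by edgeR without the filter on low counts (adjusted p = 0.0494). The authors' deposited table gives it −2.01 with an adjusted p of 0.00295. Upper-quartile scaling called 8 of these genes higher and 2 lower, and total count scaling 13 and 2. All 4 rises were lost without the filter on low counts, without mutant 3 and without any single control. Of the 4 falls, only that of Angptl4 was still called without mutant 3 or without any single control. Those of Gfpt2 and Rab20 were also lost without the filter on low counts and under upper-quartile and total count scaling.

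The authors' deposited table holds all 35 genes, each with the same sign as the edgeR fit. It gives an adjusted p under 0.05 to 2 of the 34 that have an adjusted p, against 17.2% of all genes with one. These were Epas1 (−1.32, standard error 0.425, adjusted p = 0.0166) and Pfkfb4, so that Epas1 was called there and by edgeR. Slc2a1 was not called in that table, whereas DESeq2 run on the counts of the 7 libraries called it, with a standard error of 0.205 (adjusted p = 3.21e-05). The settings behind the larger standard error of the table are not given.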

How the data were processed

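The authors deposited STAR counts per gene, whole numbers of reads that are not normalized, for each of the 7 libraries, and 1 table of results per gene that holds log2 fold changes, standard errors and adjusted p-values. The submitters' processing notes name mm10 as the build and list cutadapt, Trim Galore, FastQC, STAR and DESeq2, without versions. Per the labels' protocols the libraries are strand-specific, and the reverse-stranded column, which held 94.77% to 95.6% of stranded gene reads, was used. Symbols and coordinates came from GENCODE M21, which matched 53274 of 53379 identifiers. Aldoa matched a second identifier that failed the filter.

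Counts were filtered with filterByExpr, scaled by TMM and compared by edgeR 4.0.16 in R 4.3.3, using its two-sided quasi-likelihood F test on genotype alone. P-values of the 14610 tested genes were adjusted by the Benjamini-Hochberg method, and those under 0.05 were called. The script was tested on simulated counts. The log2 values plotted add 0.5 CPM. Shares within a family use CPM per kilobase of all annotated exon bases and exact permutation tests over libraries. DESeq2 1.42.0, other scalings and other filters were alternatives. The genes, the pathway lists and the tests were chosen with earlier results of these data known. Named genes were all 35, the targeted gene, and from each pathway list those past the threshold (up to 4, with a mean of at least 1 CPM) or otherwise the most abundant one. Marker genes were named where they stand beside a result, and Vegfa because it was left out of the lists.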

Additional observations from a re-analysis of the deposited data

Results flagged for a closer look

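In mutant 1, Car12 stood at 1984 CPM, apart from the 34.6 to 284 CPM of the other 3 mutants, with the gap to its nearest neighbour making up 0.872 of the group's whole range. Adm stood apart in the same library, at 999 CPM against 74.2 to 231 CPM, with a gap of 0.830 of the range. Both exceed a limit that such a gap passes in about 1 in 20 groups of 4 values drawn from a normal distribution. The gaps were taken on CPM, and gaps of log2 levels were not examined. More than 1 in 20 of all tested genes passed the limit, so it gives no chance rate for these values. The 2 genes are 5.71% of the 35 examined, against 8.87% of all tested genes, so their number is no higher than in the rest of the libraries' genes.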

How the results depend on the processing

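At this depth 3 reads equal at most 0.235 CPM, and the lowest value among the 35 genes, Ankrd37 in mutant 1, was 0.626 CPM. RLE scaling, counts without strand, no filter on low counts and added reads of near-identical copies (the last chosen after seeing the data) kept 0 of the 35 genes higher and 2 lower. DESeq2, total count and upper-quartile scaling each gave 2 higher and 2 lower. Leaving out 1 library gave 0 to 5 higher and 0 to 7 lower. Over all tested genes, 784 were higher and 903 lower. DESeq2 gave 1664 and 1626, total count scaling 2202 and 532, upper-quartile scaling 1178 and 704, and no filter 355 higher and 702 lower. Leaving out 1 library gave 45 to 2314 higher and 84 to 2089 lower. The pathway lists, at 4 higher and 4 lower, gave 8 and 8 in DESeq2, 13 and 2 under total count scaling, 8 and 2 under upper-quartile scaling, 0 and 3 without a filter, and 0 to 14 and 1 to 11 without 1 library. With the replicate number as a block, 0 of the 35 genes and 0 of the pathway lists were called in either direction, and 2 genes higher and 0 lower over all tested genes. Same-numbered libraries correlated at −0.02, −0.362 and 0.155, so the numbers do not pair them. Slc2a3 turned to −3.32 and Pfkm to −0.016 with the block. Log2 fold changes turned positive under total count scaling for Hk2 (0.095), Gpi1 (0.19), Aldoa (0.088), Gapdh (0.23), Eno2 (0.050) and Pfkfb3 (0.24), and under upper-quartile scaling for Gapdh (0.019) and Pfkfb3 (0.049). Leaving out 1 library gave −0.387 to 0.051 for Gpi1, −0.269 to 0.085 for Gapdh, −0.052 to 0.344 for Pgam1, −0.709 to 0.213 for Pfkfb3 and −0.235 to 0.488 for P4ha1. The difference in the Pfkl share was −0.652 percentage points, −5.93 to 4.73 without 1 library and 0.464 with the longest coding length of each gene, added after seeing the data. That in the Eno1 share was −0.812, and −2.11 to 1.61 without 1 library. The cause of these turns was not tested. Shares with the coding length of RefSeq proteins were not run.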
